A study of Caenorhabditis elegans with 2 samples.

Results

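The genes of interest were the 8 Caenorhabditis elegans genes for the subunits of the chaperonin CCT, cct-1 to cct-8, taken by symbol from 19973 protein-coding genes of the WBcel235 assembly. CCT, also called TRiC, is a barrel-shaped complex of the cytosol that encloses newly made proteins and folds them with energy from ATP. Each of its subunits is the product of a separate gene, actin and tubulin are its best known clients, and prefoldin hands such clients over to it. EFL-1 is an E2F-family transcription factor, which with its DP partner and the Rb-like protein LIN-35 belongs to the DREAM complex and is best known for its place at genes of the cell cycle.

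Binding was mapped by chromatin immunoprecipitation and sequencing in whole first-stage (L1) larvae of strain YL424, labelled as pooled males and females with age unknown. These animals carry the mutation unc-119(ed3)III and the inserted transgene vrIs68, in which the efl-1 promoter and 3' UTR flank EFL-1 joined to GFP and FLAG and which also holds unc-119 (+), the intact copy of the mutated gene. In the labels the antibody is listed as efl-1, whereas the description has eGFP-efl-1 as what was pulled down. Whole animals were used, so the cells a peak came from cannot be told apart. There was 1 group of 2 libraries, called biological replicates 1 and 2, so values could be set beside each other across genes and lists but no test between conditions was possible. The deposited peak lists hold no reads, which left sequencing depth unknown. The authors' list thresholded on the irreproducible discovery rate, called the reproducible list here, held 3824 peaks, and the longer lists of peaks and background that went into it held 28550 entries for the pooled reads, 30000 for replicate 1 and 28686 for replicate 2.

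Of the 8 cct genes, 7 had a reproducible EFL-1::GFP peak in the promoter, and cct-3 had none. Coordinates are those of WBcel235, which is ce11. A promoter was taken to reach 500 bp upstream and 100 bp downstream of each annotated start, and to hold a peak when the summit lay inside it. Of all protein-coding genes 14.8% had such a peak. The peaks of 5 members, cct-1, cct-5, cct-6, cct-7 and cct-8, were in the strongest 20% of the list, where 4.67% of all genes had a promoter peak. The peaks of cct-2 and cct-4 were weaker than that of the median gene with a peak. Scores are the authors' own values on a scale that was not stated, so they rank peaks within a list and do not measure occupancy. Replicate scores below are those of the strongest promoter entry in that replicate's list. By this score, the percentiles of the 8 genes among all 19973 were 99.2 for cct-6, 97.39 for cct-5, 97.14 for cct-8, 96.53 for cct-1, 95.56 for cct-7, 90.57 for cct-2, 89.61 for cct-4 and 42.62 for cct-3, the rank that all genes without a peak share. No test was run on the 8 genes as a set.

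The gene with the strongest peak was cct-6 (WBGene00000381), which encodes the zeta subunit and lies on chromosome III from 5853530 to 5855687 on the minus strand of WBcel235. Its promoter peak, at 5855797 to 5856215 in the reproducible list, had a score of 345 and rank 92 in the replicate 1 list, a score of 1666 and rank 151 in the replicate 2 list, and a score of 2008 in the pooled list. By its pooled score the gene ranked 160 among the 2947 genes with a promoter peak, whose median score was 169.2. It was the highest of the 8 genes in each list.

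The second strongest was cct-5 (WBGene00000380, chromosome III, 4499188 to 4508114, minus strand), the gene for the epsilon subunit. Its peak at 4508429 to 4508731 scored 774 in the pooled list, 119 in replicate 1 and 650.4 in replicate 2. The gene cct-8 (WBGene00021934, chromosome IV, 1087108 to 1093920, minus strand), which encodes the theta subunit, had a peak at 1094218 to 1094498 with scores of 694, 79.9 and 620 in the same order of lists. For cct-1 (WBGene00000377, chromosome II, 8185443 to 8187601, plus strand), the gene for the alpha subunit, the peak at 8185082 to 8185340 scored 512, 88.5 and 422. These 3 genes stood next to each other in the order, at ranks 521, 571 and 693 of the 2947 genes, and cct-8 and cct-1 changed places between the replicates.

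Lower down was cct-7 (WBGene00020391, chromosome V, 1872246 to 1875505, plus strand), the gene for the eta subunit, with a peak at 1871817 to 1872105 that scored 366 in the pooled list, 57.3 in replicate 1 and 307 in replicate 2. The beta subunit gene cct-2 (WBGene00000378, chromosome II, 8927741 to 8929815, plus strand) had a narrow peak of 136 bp at 8927375 to 8927510 with scores of 111, 18.9 and 101. The 18.9 of replicate 1 is that of an entry with its summit at −126 bp, outside this narrow peak. The delta subunit gene cct-4 (WBGene00000379, chromosome II, 8283667 to 8285711, plus strand) had one of 129 bp at 8283382 to 8283510 with scores of 91.8, 18.9 and 70.8. Both lay below the median of all genes with a peak, and their peaks ranked 1777 and 2054 of 3824.

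**Figure D1:**
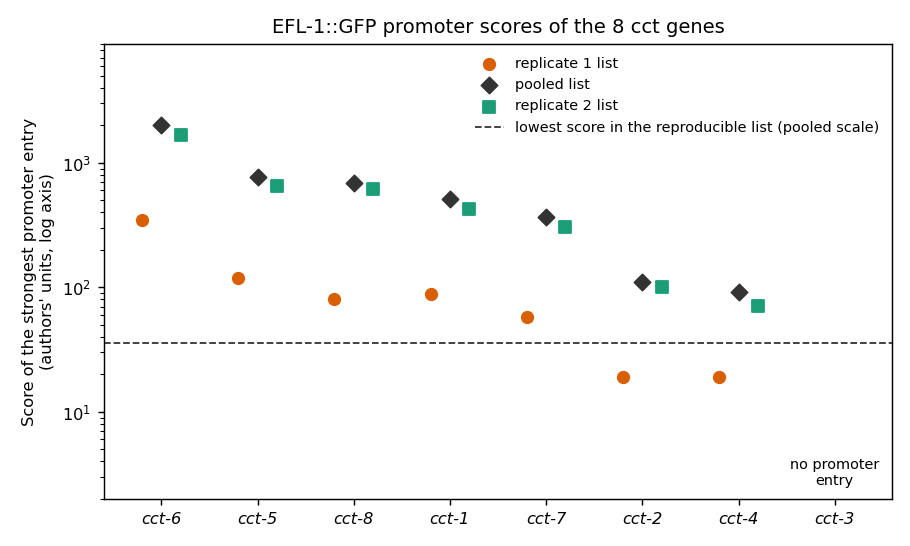
Score of the strongest promoter entry of each cct gene (authors' units, log axis) in the replicate 1, pooled and replicate 2 lists, with the genes in order of pooled score and a dashed line at 35.7, the lowest pooled score in the reproducible list. The order runs from cct-6 at 2008 to cct-4 at 91.8 in the pooled list, cct-3 has no promoter entry, and scores of different lists need not share a scale.

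The bases near the 7 summits were searched for the letters of known sites. Within 50 bp of the summit, on both strands, an E2F core, spelled as the letters TTCCCGC, the letters TTGGCGC, the letters TTCGCGC or the letters TTGCCGC, was present at 2 of the 7 peaks, and at 16.8% of all 3824 reproducible peaks and 31% of the strongest 20%. Both had the letters TTGCCGC. Along the plus strand, these lay from −10 to −4 bp of the summit in cct-5 and from −9 to −3 bp in cct-8. They are shown here with the core in capitals, read 5′ to 3′ on the strand that matches, which is minus at chrIII:4508558-4508587 and plus at chrIV:1094331-1094360.
cct-5: aaaattgcggacTTGCCGCgtacaccatga
cct-8: cccgccgcgatTTGCCGCcacgggagatgt

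A CHR core, TTTGAA or TTCGAA, is bound in human cells by the DREAM subunit LIN54. Such a core was within 50 bp of the summit at 1 of 7 peaks, that of cct-6, from 28 to 33 bp in plus-strand coordinates. All reproducible peaks had one in 34.4% of cases and the strongest 20% in 59.2%. Within 25 bp of the summit the count was 0 of 7, against 13% of all peaks, and within 100 bp it was 2 of 7, against 52.9%. The heat shock element letters GAANNTTC were within 50 bp at 0 of 7 peaks and at 4.16% of all, and TATAAA at 0 of 7 and at 4.26%. The core of cct-6 lies on the minus strand at chrIII:5856008-5856037 and is shown in capitals. A match of letters does not show a bound site, and a missing match says only that these letters were not in the window.
cct-6: gaaaaacctaatTTTGAAacaccgcgtaaa

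One run of letters was shared by 3 cct summits and was found by comparing the 7 windows after they had been seen. Of all 7-base words, 3 occurred in 3 of the 7 windows of 101 bp and none in more. Of these, GGGTCTC and the overlapping TGGGTCT were both at cct-1, cct-4 and cct-6, and TCAAAAT was at cct-2, cct-6 and cct-8. Of all reproducible windows, 4.65% held GGGTCTC, 2.43% held TGGGTCT and 4.65% held TCAAAAT. In the 500 bp upstream of protein-coding genes the shares were 4.52%, 4% and 40.1%. Those stretches are longer than the windows of 101 bp, which raises the share, so these values cannot be compared directly with the shares of windows. The letters common to the 3 genes around it spelled TGGGTCTCNNCACG, and they are shown in capitals on the plus strand at chrII:8185190-8185219, chrII:8283408-8283437 and chrIII:5855957-5855986.
cct-1: gctggtgtTGGGTCTCggCACGattaccct
cct-4: aactcaagTGGGTCTCgcCACGaaaccagt
cct-6: ttcgcaacTGGGTCTCacCACGcagagaca

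Along the plus strand, the run began 5 bp before the summit coordinate at cct-1, 17 at cct-4 and 27 at cct-6. Since cct-6 is a gene of the minus strand, the run lay on the cct-6 side of that summit. On both strands it occurred 3163 times in the nuclear genome, and 20 of these copies (0.632%) had their centre within 50 bp of a reproducible summit. Most copies in the genome were therefore not near a reproducible summit. The 3824 windows of 101 bp cover only a small part of the genome, so the same would hold for most sequences. Whether the run is tied to the peaks was not tested. The run was present in 20 of the 3824 windows (0.523%) and in the 500 bp upstream of 0.601% of protein-coding genes. The upstream stretches are longer than the windows of 101 bp, so these shares cannot be compared directly.

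A run of 9 bases or more on either strand was common to 5 of the 21 pairs of cct windows (23.8%), against a background of 15.4% of all pairs of reproducible peaks, so such runs are not a feature of the cct summits alone. That of cct-1 and cct-4 is part of the letters given above. The longest had 10 bases, GAGAAATTCG at cct-2 and cct-5, and CTGGTGGCCG at cct-2 and cct-7. The second pair is shown on the plus strand at chrII:8927398-8927427 and chrV:1871967-1871996, with the shared bases in capitals. The GC content of the windows was 44.6% to 57.4% with a median of 47.5%, and the median of all reproducible windows was 45.5%.
cct-2: attattctaaCTGGTGGCCGagaaattcgc
cct-7: gcatttgtggCTGGTGGCCGtggccgcgag

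The replicates ranked the 7 genes in almost the same order. Spearman's rho between the replicate scores was 0.964 over these 7 promoters, and only the order of cct-8 and cct-1 differed. It is given as a description, since all 7 values come from the same pair of libraries. The 7 genes also came from a list cut on reproducibility between these replicates, so agreement in order was partly selected for. In replicate 1, cct-2 and cct-4 were almost tied, at 18.92 and 18.89. Promoter entries were present for the same 7 of 8 genes in the pooled, replicate 1 and replicate 2 lists, but those lists include background, and 33.2%, 30.1% and 33.9% of all genes had an entry in them.

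Support at a −log10 q above 2 in each replicate separated the members. It was present for 5 of the 8 genes, against 6.93% of all genes, and the exceptions among those with a peak were cct-2 and cct-4. In replicate 2 the promoter entries of both had a −log10 q of 4.22, the maximum of that list. In replicate 1 they had 1.28 each, whereas the other 5 genes had 3.22, the maximum there. A −log10 q above 2 was far commoner in replicate 2, at 12800 of 28686 entries against 1196 of 30000 in replicate 1. Weak entries of replicate 2 also reached its maximum, such as that of cct-5 with a score of 10.4. The criterion was thus decided mainly by replicate 1. The replicate 1 entry of cct-2 also peaked elsewhere, at −126 bp, and overlapped the reproducible peak by only 51 bp, while the replicate 2 summit stood at −286 bp, the position of the reproducible summit. At cct-4 the summits stood at −275 bp in replicate 1 and −216 bp in replicate 2. Weaker entries also lay in the promoters of cct-5, cct-2 and cct-8. They were at 11 bp from the cct-5 start in replicate 1 with a score of 15.2, at 84 bp in replicate 2 with 10.4, at −87 bp from cct-2 in the pooled list with 12.4, at 86 bp from cct-2 in replicate 1 with 6.12 and at −493 bp from a second cct-8 start in replicate 2 with 4.16.

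**Figure D2:**
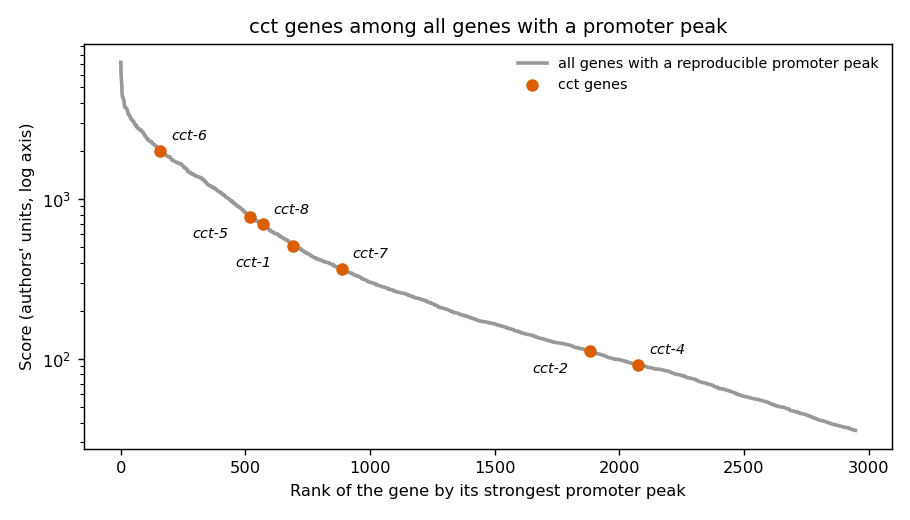
Scores of the strongest reproducible promoter peak of all 2947 genes that had one, in order of rank (log axis), with the 7 cct genes marked. The gene cct-6 ranks 160, cct-5, cct-8, cct-1 and cct-7 rank 521 to 886, and cct-2 and cct-4 rank 1884 and 2076.

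The exception was cct-3 (WBGene00018782, chromosome II, 2233540 to 2243539, plus strand), the gene for the gamma subunit, which at 10000 bp is the longest of the 8. Its promoter held no entry in any of the 4 lists. The nearest upstream entry of the pooled list had its summit at −930 bp and a score of 25.4, below the 35.7 of the weakest reproducible peak. The nearest upstream summit of replicate 1 was at −889 bp, with a −log10 q of 0.165. That of replicate 2 was at −811 bp, with a score of 13.2 and a −log10 q of 4.22, a maximum that weak entries reach there. None of the 8 genes had a reproducible summit inside its own body.

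Most cct peaks lay in an intergenic stretch shared with a gene that runs the other way. For 6 of the 7 genes the summit was also in the promoter of a gene on the opposite strand and upstream of both starts. Of all 2947 genes with a promoter peak, the strongest summit of 45.6% was in the promoter of another gene, and that of 41.4% lay between diverging starts. The partners were mig-5, which encodes a Dishevelled protein of Wnt signalling, at cct-1, the nucleostemin gene nst-1 at cct-4, F25F2.1 at cct-5, alh-9, a gene of the aldehyde dehydrogenase family, at cct-6, T10B5.4 at cct-7 and Y55F3AR.2 at cct-8. The starts of these pairs were 331 to 741 bp apart.

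In each of the 6 pairs the summit was nearer to the partner than to the cct gene. At cct-6 it stood at −305 bp from the cct start and −26 bp from that of alh-9, and the peak reached over the alh-9 start. At cct-8 the distances were −431 and −190 bp, at cct-5 −465 and −276 bp, at cct-7 −284 and −155 bp, and at cct-1 −240 and −180 bp. At cct-4 they were almost equal, −234 and −225 bp. Among all 1221 genes with a summit between diverging starts, the partner was as near or nearer in 50.5%. Both genes of a pair, the nearer and the farther, are generally counted there. That share is thus largely fixed by the counting and is not an independent background. With each summit given only to its nearest start, 1 of the 8 cct genes kept a peak, cct-2, compared with 11.3% of all genes. Which gene of a pair a peak serves was not tested.

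**Figure D3:**
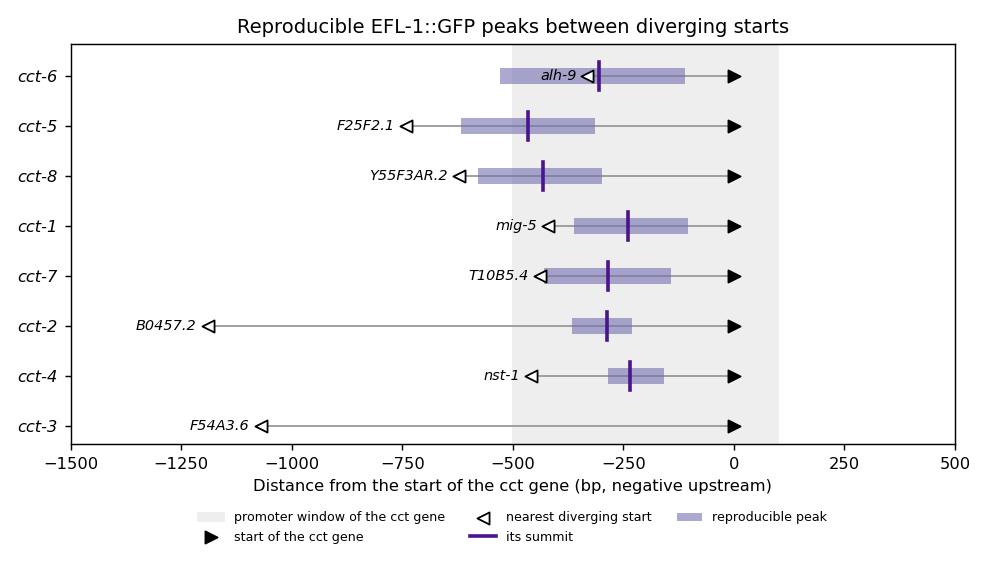
Position of the reproducible peak (bar) and its summit (dark line) relative to the start of each cct gene in bp, with the nearest diverging start (open triangle) and the promoter window shaded. In 6 genes the summit lies between 2 starts and nearer the left one, cct-2 has its own peak at −286 bp, and cct-3 has none.

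The gene cct-2 was the one whose peak was not shared. Its nearest diverging start, that of B0457.2, was 1190 bp away, and the reproducible summit stood at −286 bp. The gene without a peak, cct-3, likewise had a distant neighbour, with 1070 bp between its start and that of F54A3.6. The cct summits were at −465 to −234 bp from the cct starts, with a median of −286 bp. The median over all genes with a peak was −173 bp, and 36.2% of them had their strongest summit at −234 bp or farther upstream. With a promoter of 0.5 times the length, 2 of the 8 genes, cct-1 and cct-4, kept a peak, against 10.1% of all genes. As background, many worm transcripts are trans-spliced, and an annotated start can then lie downstream of the place where transcription begins.

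**Figure D4:**
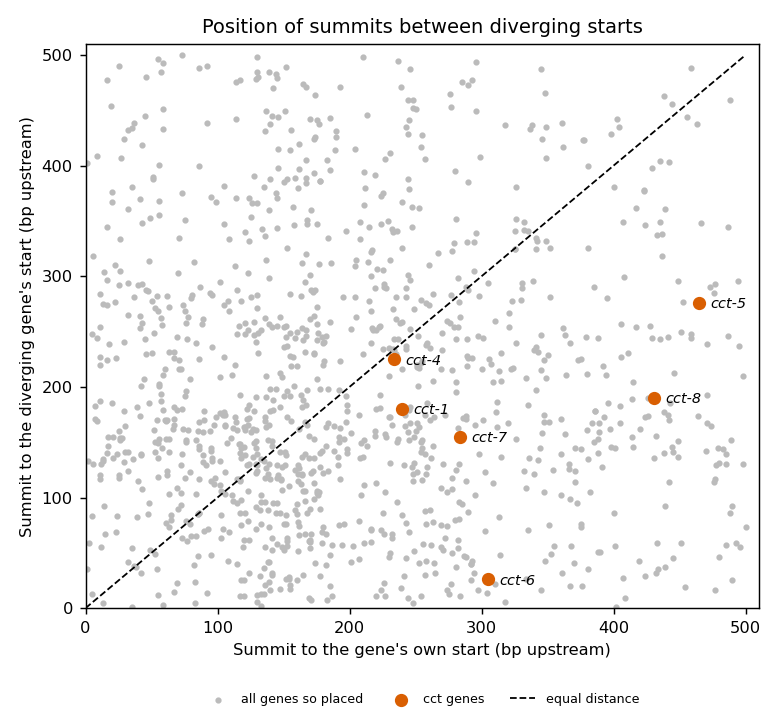
Distance in bp from the summit to the start of the gene itself (x axis) and to that of the diverging gene (y axis) for all 1221 genes with a summit between diverging starts (grey) and 6 cct genes (orange). All 6 lie below the line of equal distance, cct-4 next to it and cct-6 farthest toward its partner.

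The genes that follow on the same strand were also examined. The short gaps to them were 25 bp from cct-2 to mrpl-50, a mitochondrial ribosomal protein gene, 94 bp from cct-8 to csn-4, a gene of the COP9 signalosome, 102 bp from cct-3 to F54A3.2, 142 bp from cct-5 to atf-7, and 260 bp from cct-6 to ddx-23. Of these followers, mrpl-50, csn-4, F54A3.2 and atf-7 had no reproducible promoter peak, and ddx-23, a gene for a DEAD-box helicase, had one with a score of 330.2. Closely spaced worm genes of 1 strand are often transcribed together as an operon, but operons were not annotated in the files used here. No protein-coding or other gene covered any of the 7 summits, so all 7 were intergenic, and at cct-7 a non-coding RNA gene, T10B5.13, began 18 bp from the summit.

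Most genes of prefoldin and of the other large chaperone systems also had promoter peaks. Of 7 prefoldin genes (pfd-1 to pfd-6 and the prefoldin-like gene uri-1), 6 had one (85.7%), from pfd-6 with a score of 2969 to pfd-4 with 86.4, and pfd-2 had none. Of 11 cytosolic genes of the HSP90 and HSP70 systems, 9 had one (81.8%), from the HSP70-HSP90 adaptor gene sti-1 at 3017 to the kinase co-chaperone gene cdc-37 at 140.5, and the co-chaperone gene sgt-1 and hsf-1, the heat shock factor, had none. Of 6 chaperone genes of the endoplasmic reticulum, 5 had one (83.3%), from the BiP gene hsp-3 at 439 to the disulfide isomerase gene pdi-2 at 38.6. Both pdi-2 and cnx-1, the latter at 38.7, were near the lowest score of the list, 35.7, and had no entry in replicate 1. The other BiP gene, hsp-4, had no promoter peak. Of 4 mitochondrial genes, 3 had one, from Y22D7AL.10 at 565 to the mitochondrial HSP70 gene hsp-6 at 170.4, also without an entry in replicate 1, and hsp-60, a chaperonin of the other structural class, had none. These shares are read against the 14.8% of all genes, and no difference between lists was tested. Peaks in the strongest 20% of the list were at 3 of the 7 prefoldin genes and 6 of the 11 cytosolic genes. They were at 1 of the 6 endoplasmic reticulum genes and 1 of the 4 mitochondrial genes. For the cct genes the count was 5 of 8, and for all genes the share was 4.67%.

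The genes for clients of CCT and for small heat shock proteins are given next. Of 5 actin genes 1 had a promoter peak, act-2 with a score of 544, and act-1, act-3, act-4 and act-5 had none, though several actin genes are near-identical copies, so that counts for them are uncertain. Of 16 tubulin genes 3 had one (18.8%), from the alpha tubulin gene tba-2 at 4541 to the beta tubulin gene tbb-6 at 38.0. Of 5 genes for WD40-repeat clients, 2 had one, the CDC20 gene fzy-1 at 520 and the checkpoint gene bub-3 at 237, and the CDH1 gene fzr-1 and the G protein beta subunit genes gpb-1 and gpb-2 had none. Of 13 small heat shock protein genes 3 had one (23.1%), with sip-1 at 1170 and with hsp-16.2 and hsp-16.41 sharing a peak at 86.4. The hsp-16 genes also include near-identical copies.

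**Figure D5:**
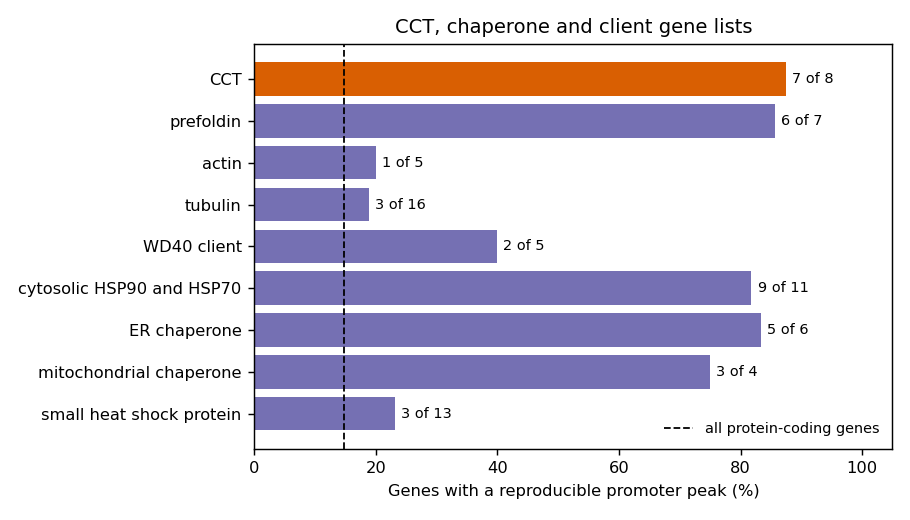
Share of the genes of each list with a reproducible promoter peak, with the counts beside the bars and a dashed line at 14.8%, the share of all protein-coding genes. The CCT, prefoldin, cytosolic, endoplasmic reticulum and mitochondrial chaperone lists lie between 75% and 87.5%, and the actin, tubulin and small heat shock protein lists between 18.8% and 23.1%, with the WD40 clients at 40%.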

How the data were processed

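Lists of peaks in the ce11 build, in narrowPeak format, were used as deposited for both libraries, for the pooled alignments and for the reproducible set. Per the file headers in the text files deposited with each library, each list of peaks and background came from the alignment of 1 replicate, or of both, with a control alignment, and the optimal list, cut on the irreproducible discovery rate, came from those 3 lists. The size range was 150 to 350 bp per the labels. The caller, aligner and threshold are not given in the sources used here. The score (column 7) and the −log10 of the q-value (column 9) are values deposited by the authors. The labels call the libraries biological replicates. Each list was called separately, so scores were compared within a list. The control library and signal tracks were not analysed here, and the lists of the older build were not used.

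Starts were taken from Ensembl release 115 (WBcel235, the ce11 sequence) and sequence from the RefSeq copy of that assembly. Each summit was given to all genes with a start within reach (500 bp upstream, 100 bp downstream), and the highest score was kept per gene. Percentiles rank promoter scores over all 19973 genes, with 0 for none. Letters were sought on both strands with Python 3.11.15, and figures drawn with matplotlib 3.10.9. The HSP90 gene is hsp-90 in this annotation, and hsp-16.1 and hsp-16.48 name 2 gene IDs each. Assignment, percentiles and letter counts were checked on simulated data.

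The members, the comparison lists and the alternatives were chosen with earlier results of these data known. Words shared by the summits were sought after the sequences were seen. Named were all members, genes sharing or adjoining their promoters, and in each comparison list the strongest and weakest bound genes and those without a peak where there were 4 or fewer. Further genes on the same strand, and cnx-1, were named after their values were seen.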

Additional observations from a re-analysis of the deposited data

How the results depend on the processing

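The count of cct genes with a promoter peak was 7 of 8 in the wider promoter of 2 times the length (17.9% of all genes), with any overlap of peak and promoter (15.9%), in the pooled list (33.2%) and in the strongest 3824 entries without replicate 1 (14.8%) or without replicate 2 (11.8%). The wider promoter, the overlap rule and the pooled list keep every cct peak of the main setting, so they could not lower the count. The count was 6 in the stronger 50% of peaks (9.85%) and 5 among peaks supported in each replicate (6.93%). It fell to 2 with the promoter of 0.5 times the length (10.1%) and to 1 with the nearest start only (11.3%), since the summits lie far upstream of the cct starts and nearer to the partner genes. The median percentile of the 8 genes by promoter score was 96.05, and leaving out replicate 1 or replicate 2 gave 95.95 and 96.25. It was 95.43 in the wider promoter, 95.75 with any overlap, 44.96 in the narrower promoter and 44.35 with the nearest start only, where most members take the rank of genes without a peak. In the other settings it moved by less than the SD of its values without replicate 1 and without replicate 2. For single genes the tolerance was the same SD taken for each gene separately, and 38 of 72 percentiles under the alternatives moved by more than it. The 72 include the settings without replicate 1 and without replicate 2, from which that SD was taken. They also include cct-3, which had no peak in any setting and moves only with the number of genes without a peak. The count of 38 is thus a description only.

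The number of cct summits with an E2F core was 2 within 25, 50 and 100 bp, where 9.36%, 16.8% and 21.5% of all peaks had one. That with a CHR core was 1 within 50 bp (34.4% of all peaks), 0 within 25 bp (13%) and 2 within 100 bp (52.9%). Within 100 bp the heat shock element letters GAANNTTC were at 2 summits (10.6%) and TATAAA at 1 (14.7%), against 0 within 50 bp (4.16% and 4.26%). No paired analysis was possible because there was 1 group. The lists hold no reads, so depth and counting error are unknown, and weak entries of replicate 1 limit what can be said of cct-2 and cct-4.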
